A study of Mus musculus with 12 samples.

Results

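The first bin at the 5′ end of a gene was examined in mouse embryonic stem cells depleted of Tet1 or Tet2. An exon bin is the unit in which exon use is counted: the exons of all annotated transcripts of a gene are cut into non-overlapping pieces, and the reads on each piece are set against the reads on the rest of the gene. Of 36521 genes in the exon tables, 905 were merged from several genes and were left out, 20252 of the others had at least 3 bins, and 19272 of those had a strand in the GENCODE M21 annotation. The bin at the 5′ end of each gene was taken, and it was kept where the authors' mean normalized count of the bin was at least 20 in both exon tables. This left 1322 first bins (663 genes on the plus strand, 659 on the minus strand) among 366995 bins in all. Of the first bins left out, 17950 were below the minimum in 1 or both tables and 9756 of these were listed at 0 in both.

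The cells belong to the mouse line V6.5, and 3 groups were sequenced with 4 libraries each, labelled as biological replicates: parental cells with no knockdown, Tet1kd cells and Tet2kd cells. All were grown in serum with LIF, and RNA went through 2 rounds of poly(A) selection before SOLiD sequencing. The knockdown cells had been electroporated with a pSUPER-puro plasmid expressing a short hairpin RNA against Tet1 or Tet2, selected with puromycin on SNL76/7-4 feeder cells and picked as single clones. The labels name no number of clones behind each 4 libraries, and no group carried a control hairpin or empty vector, so the vector, the selection and the cloning cannot be told apart from the knockdown. Both knockdowns were set against 1 set of 4 parental libraries, so the comparisons share their controls and their values are set side by side only.

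Transcription starts in the first exon, and most of the first exon is untranslated leader. Many genes have several start sites, each with its own first exon, so the first bin collects only the transcripts that begin at the outermost annotated start, or that run through it. Tet1 and Tet2 are dioxygenases that convert 5-methylcytosine to 5-hydroxymethylcytosine. In embryonic stem cells Tet1, which has a CXXC domain that binds CpG-containing DNA, is known from CpG-rich promoters, and Tet2, which lacks that domain, is known from gene bodies and enhancers. Vertebrate promoters fall broadly into CpG-rich ones, typical of housekeeping genes and usually unmethylated, and CpG-poor ones that are more often methylated.

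The stretches before the start of 5 genes whose first bin changed are shown. The genes were taken from the first 3 named ones by adjusted p in each direction and comparison, not by CpG content. The stretches come from RefSeq promoter windows (GRCm38.p6, 250 bases before and 50 after the outermost RefSeq start), cut to the part that holds no annotated exon. CpG dinucleotides are in capitals. Cyb5r1, Gabarap, Atad2 and Lgals1 met the same rule but had no such window, or no exon-free part of at least 40 bases in it. The first bins of Aebp2 and Slc7a7 were called in Tet1kd cells, that of Sdhd in both knockdowns, and those of Melk and Mrps5 in Tet2kd cells.
Aebp2: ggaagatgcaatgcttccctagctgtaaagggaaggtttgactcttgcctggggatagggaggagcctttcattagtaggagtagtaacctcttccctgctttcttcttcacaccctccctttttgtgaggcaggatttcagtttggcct
Slc7a7: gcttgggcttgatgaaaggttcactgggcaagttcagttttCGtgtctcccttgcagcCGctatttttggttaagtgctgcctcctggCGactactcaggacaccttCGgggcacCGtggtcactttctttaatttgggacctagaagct
Sdhd: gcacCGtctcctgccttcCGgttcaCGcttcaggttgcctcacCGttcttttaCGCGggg
Melk: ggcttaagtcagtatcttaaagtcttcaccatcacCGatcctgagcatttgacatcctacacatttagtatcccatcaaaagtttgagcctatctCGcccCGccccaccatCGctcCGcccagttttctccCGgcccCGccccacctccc
Mrps5: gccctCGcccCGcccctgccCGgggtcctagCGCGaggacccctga
The Aebp2 stretch lies at chr6:140622513-140622662 (plus strand) and holds 0 CpG in 150 bases. The Slc7a7 stretch lies at chr14:54417945-54418094 (minus strand) and holds 5 in 150. The Sdhd stretch (chr9:50603850-50603909, minus strand) holds 6 in 60 bases, the Melk stretch (chr4:44300726-44300875, plus strand) 7 in 150, and the Mrps5 stretch (chr2:127587176-127587221, plus strand) 5 in 46. The GC-box core GGGCGG was found, on either strand, in the Melk and Mrps5 stretches and in none of the other 3, and 35.7% of the 32851 windows of 300 bases held it. A TATA box (TATAAA, in 13.6% of all windows), a CCAAT box (CCAAT, in 37.4%), an E-box (CACGTG, in 7.15%), a cyclic AMP response element (TGACGTCA, in 1.79%) and the NRF1 motif (in 0.971%) were searched on both strands, and none was in any of the 5 stretches. The Aebp2, Slc7a7 and Sdhd stretches end directly before the outermost RefSeq start, that of Melk 41 and that of Mrps5 204 bases before it. Aebp2 had 3 and Slc7a7 5 listed RefSeq starts, the other genes 1 each. The stretches thus differ in length and in distance to the RefSeq start. The shares are over longer windows than the stretches, and the matches are descriptions of the letters only.

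The knockdowns were seen at the gene level. In the authors' deposited tables the Tet1 gene fell by 1.99 on the log2 scale in Tet1kd cells (DESeq, adjusted p = 1.19e-68), and the Tet2 gene by 0.97 in Tet2kd cells (DESeq, adjusted p = 3.08e-30). The stem cell markers Pou5f1 and Sox2 were high in every group, with gene means in the authors' deposited Tet1kd table of 14167 and 10105 normalized counts in parental and 15262 and 12317 in Tet1kd cells. In Tet2kd cells the authors' deposited table gave Pou5f1 and Sox2 gene means of 11819 and 11278. Normalized counts summed over genes were 22.7 and 21.9 M for the parental and Tet1kd group means in one gene table and 20.9 and 20.7 M for the parental and Tet2kd group means in the other. The 30 markers of feeder fibroblasts tested were all above 0 in every group. Of them 4 were higher and 20 lower in Tet1kd cells (median log2 fold change -0.62), and 7 were higher and 4 lower in Tet2kd cells (median 0.08). Their summed mean went from 81341 to 94793 in the Tet1kd table and from 74694 to 91591 in the Tet2kd table, and the part of feeder RNA in the results was not tested.

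The first bins of the TET genes themselves were not among the members. In the authors' deposited tables the first bin of Tet1 had a mean of 2.23 in the Tet1kd table and 1.78 in the Tet2kd table, that of Tet2 9.01 and 5.87, and that of Tet3 was listed at 0 in both. The first bin from the 5′ end that reached a mean of 20 was bin 2 of 27 in Tet1, bin 2 of 15 in Tet2 and bin 4 of 17 in Tet3. None of these was called: in the authors' deposited tables the ratios for Tet1 were 0.08 (DEXSeq, adjusted p = 0.757) and -0.06 (adjusted p = 0.717) in Tet1kd and Tet2kd cells. The fall of the Tet1 gene in Tet1kd cells thus came with no called change in the share of reads at its start. For Tet2 the authors' deposited ratios were -0.16 (DEXSeq, adjusted p = 0.55) and -0.05 (adjusted p = 0.916), and for Tet3 they were 0.10 (adjusted p = 0.744) and -0.06 (adjusted p = 0.889).

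Among the 1322 members, 1288 belonged to protein-coding genes, 27 to pseudogenes and 7 to other noncoding genes. The members' mean, which chose them, had a median of 60.5 normalized counts in the Tet1kd table and 56.6 in the Tet2kd table. It ranged in the Tet1kd table from 20.01 to 7028, the highest being Dppa5a, a marker of pluripotent cells. The means just inside the minimum were 20.01 for Ifrd2, 20.01 for Elovl6 and 20.05 for Adprhl2, and those just outside were 19.99 for Grsf1, 19.98 for Atp6v0e2 and 19.97 for Uhrf1. A first bin held a median of 3.82% of its gene's parental reads, with a range from 0.0626% to 98.2% over 1318 members. The genes had a median of 10 bins, against 12 over all 19272 genes from which they came. The stated minimum also selected highly expressed genes: the parental gene mean had a median of 1976 for the members and 98.2 for all genes.

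The deposited exon tables hold 1 mean and 1 log2 ratio a bin and no values per library, so no standard deviation over libraries is given and bins are described by the authors' dispersion and test. The dispersion is the squared coefficient of variation between replicates beyond counting noise. Its median over the members was 0.0312 in the Tet1kd table and 0.0327 in the Tet2kd table, against 0.0257 and 0.0261 over all bins with a mean of at least 20. In the authors' deposited tables the median absolute log2 ratio of the members was 0.0922 in Tet1kd and 0.0916 in Tet2kd cells, against 0.0831 and 0.0826 over all bins of that mean. Ratios are printed as knockdown over parental, and a bin is called where the authors' adjusted p from DEXSeq is at most 0.05. Levels of a bin in each group are estimates from the bin mean, both means of the gene and the doubled deposited ratio. A factor of 2 was used because it brought the parental share of a bin closest between the tables. By these estimates a deposited ratio of 1 stands for a log2 change of 2 in the bin's share, so ratios of bins and log2 fold changes of genes are not on 1 scale.

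In Tet1kd cells the use of the first bin changed in 71 of 1318 members tested (5.39%), higher in 34 (2.58%) and lower in 37 (2.81%). Over all 91132 bins with a mean of at least 20 the authors' deposited table called 4.44%, with 2.05% higher and 2.39% lower, and over all bins tested it called 2.56%. In Tet2kd cells 52 of 1318 first bins changed (3.95%), 13 higher (0.986%) and 39 lower (2.96%). The background there was 4.36% of 91279 bins, with 1.94% higher and 2.42% lower, and 2.45% of all bins tested. The share of higher calls among the members thus lay below the background in Tet2kd cells, and the difference was not tested. An absolute deposited log2 ratio of at least 0.5 was reached by 13 called members in Tet1kd cells (0.986%, against 0.549% of all bins of that mean) and by 4 in Tet2kd cells (0.303% against 0.406%).

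**Figure D1:**
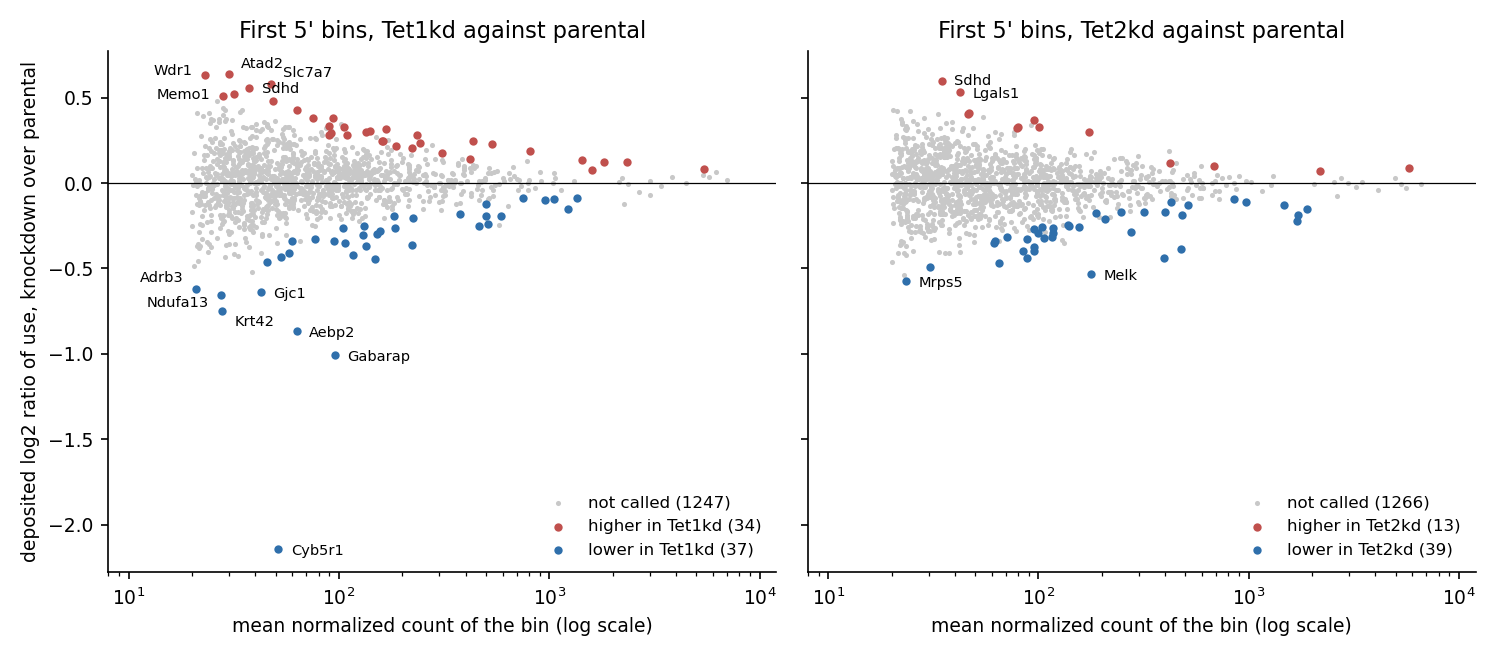
Deposited log2 ratio of use (knockdown over parental) of each first bin against its mean normalized count on a log axis, for Tet1kd (left) and Tet2kd (right). Each point is 1 bin, coloured where the authors' adjusted p is at most 0.05: 34 are higher and 37 lower in Tet1kd, 13 higher and 39 lower in Tet2kd, and Cyb5r1 lies lowest at -2.14.

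The largest fall in Tet1kd cells was at the first bin of Cyb5r1 (ENSMUSG00000026456, chr1:134405559-134411740, plus strand, GRCm38), a reductase of the cytochrome b5 family. Its estimated level was 99.2 normalized counts in parental and 3.65 in Tet1kd cells, or 2.30% and 0.118% of the reads of the gene. In the authors' deposited table its log2 ratio was -2.14 and the adjusted p was listed as 0. The gene as a whole also fell, but by far less, by 0.48 on the log2 scale (DESeq, adjusted p = 4.00e-07 in the authors' deposited table). Bins 2 to 7 from the 5′ end had means of 5.45 to 11.2, below the minimum, and ratios below 0, of which bins 2, 3, 4 and 7 were called in the authors' deposited table. Bin 8, with an estimated 107 and 40.5 normalized counts in the same groups, was called at -0.46 (DEXSeq, adjusted p = 0.000589 in the authors' deposited table). From bin 10 on, the picture changed. Bins 13, 15 and 29 were called higher at 0.33, 0.21 and 0.34 in the authors' deposited table, and bin 24 was called lower at -0.51. In Tet2kd cells none of the 21 Cyb5r1 bins with a mean of at least 20 was called, and the first bin had a ratio of -0.23 in the authors' deposited table (DEXSeq, adjusted p = 0.174).

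Gabarap (ENSMUSG00000018567, chr11:69991143-69994951, plus strand, GRCm38) encodes a ubiquitin-like protein of the ATG8 family that is attached to autophagosome membranes. Its first bin went from an estimated 147 normalized counts in parental to 43.2 in Tet1kd cells, a fall from 9.15% to 2.27% of the gene's reads. In the authors' deposited table the log2 ratio was -1.01 with the adjusted p listed as 0. The gene itself rose by 0.24 on the log2 scale (DESeq, adjusted p = 0.0302 in the authors' deposited table), so the first bin and the rest of the gene moved in opposite directions. Bins 2 and 3, next to the first, were not called, at -0.01 (DEXSeq, adjusted p = 0.978) and -0.07 (adjusted p = 0.698) in the authors' deposited table. In Tet2kd cells the first bin had a ratio of -0.20 (DEXSeq, adjusted p = 0.114 in the authors' deposited table).

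Aebp2 (ENSMUSG00000030232, chr6:140622663-140678472, plus strand, GRCm38) encodes a zinc-finger cofactor of Polycomb repressive complex 2, which methylates histone H3. The stretch shown above, which ends at the GENCODE start of the gene, holds no CpG. The first bin fell from an estimated 106 to 20.02 normalized counts in Tet1kd cells, or from 1.90% to 0.570% of the gene's reads. The authors' deposited table gave a log2 ratio of -0.87 (DEXSeq, adjusted p = 1.21e-10), and the gene fell by 0.67 on the log2 scale (DESeq, adjusted p = 4.39e-14). The next bin with a mean of at least 20, bin 11 of 40, had a ratio of 0.05 (DEXSeq, adjusted p = 0.728 in the authors' deposited table). Of the 25 other bins of that mean only bin 35 was called, at -0.35 (DEXSeq, adjusted p = 0.00549 in the authors' deposited table). In Tet2kd cells the first bin had a ratio of -0.14 (DEXSeq, adjusted p = 0.572 in the authors' deposited table).

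The other 4 first bins called at a deposited ratio of -0.5 or below in Tet1kd cells had lower means. Krt42, a type I keratin, went from an estimated 45.2 to 10.6 normalized counts, with a log2 ratio of -0.75 in the authors' deposited table (DEXSeq, adjusted p = 0.000932). Ndufa13, a subunit of mitochondrial complex I, went from 38.5 to 16.3, at -0.65 in the authors' deposited table (adjusted p = 0.00496). The 5′ end of Ndufa13 overlaps Yjefn3 on the same strand and Tssk6 on the opposite one, so its reads may not all be its own. Gjc1, the gap junction protein connexin 45, went from 64.5 to 20.4, at -0.64 in the authors' deposited table (adjusted p = 0.000318). Adrb3, the β3 adrenergic receptor, went from 28.6 to 13.1, at -0.62 in the authors' deposited table (adjusted p = 0.0272). The Krt42 and Gjc1 genes also fell, by 0.59 and 0.39 on the log2 scale (DESeq, adjusted p = 0.0366 and 3.08e-05 in the authors' deposited table). The Ndufa13 and Adrb3 genes had log2 fold changes of 0.07 and 0.11 that did not pass the test (adjusted p = 1 and 0.754 in the authors' deposited table).

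In Tet1kd cells 6 first bins were called at a deposited ratio of at least 0.5, all from estimated parental levels below 30. Slc7a7, the light chain of a cationic amino acid transporter (ENSMUSG00000000958, chr14:54369442-54417780, minus strand, GRCm38), went from 27.7 to 67.0 normalized counts, or from 2.48% to 5.57% of the gene's reads. Its log2 ratio in the authors' deposited table was 0.58 (DEXSeq, adjusted p = 0.00280), none of its other bins was called, and the ratio in Tet2kd cells was -0.09 (adjusted p = 0.891). Atad2, an ATPase with a bromodomain, went from 19.7 to 39.9, at 0.64 in the authors' deposited table (DEXSeq, adjusted p = 0.0054). Wdr1, a cofactor of actin disassembly, had estimates of 20.2 and 25.98, with a ratio of 0.63 in the authors' deposited table (DEXSeq, adjusted p = 0.0201). The Wdr1 gene fell by 0.91 on the log2 scale (DESeq, adjusted p = 3.21e-25 in the authors' deposited table), so the call on its first bin reflects a share that rose from 0.204% to 0.491% while the bin's own level moved little. Rad21, a subunit of the cohesin ring, went from 22.9 to 40.4, at 0.52 in the authors' deposited table (DEXSeq, adjusted p = 0.0440). Memo1, known from cell motility, went from 20.6 to 35.4, at 0.51 in the authors' deposited table (DEXSeq, adjusted p = 0.0450).

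Sdhd (ENSMUSG00000000171, chr9:50596357-50603812, minus strand, GRCm38), the membrane anchor of succinate dehydrogenase, was the one gene with a ratio of at least 0.5 called in both tables. Its first bin went from an estimated 22.2 to 52.6 normalized counts in the Tet1kd table and from 20.5 to 48.8 in the Tet2kd table. The authors' deposited tables gave log2 ratios of 0.55 (DEXSeq, adjusted p = 0.0116) and 0.60 (adjusted p = 0.0184). None of its other 3 bins was called, and the gene did not pass the test in either comparison (log2 fold changes 0.13 and 0.05, DESeq, adjusted p = 0.356 and 0.918 in the authors' deposited tables). Both comparisons rest on the same 4 parental libraries, in which the bin held 0.700% of the gene's reads by the Tet1kd table and 0.703% by the Tet2kd table.

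**Figure D2:**
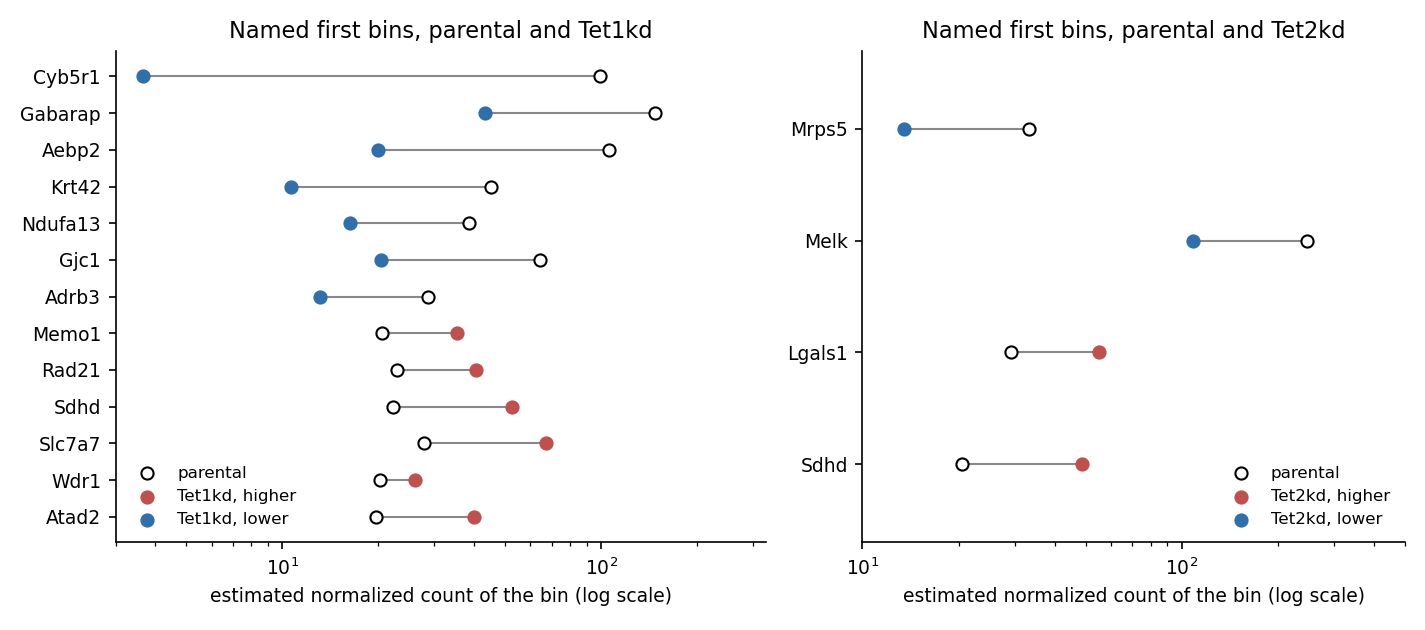
Estimated normalized count (log axis) of the named first bins in parental cells (open circles) and in the knockdown (filled, red higher and blue lower), for Tet1kd (left) and Tet2kd (right); a line joins the groups of a gene. Cyb5r1 spans the widest distance, from 99.2 to 3.65, and the 6 higher Tet1kd bins start below 30.

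In Tet2kd cells 3 first bins had an adjusted p listed as 0 in the authors' deposited table: those of Melk, Tubb5 and Rrm1. Melk (ENSMUSG00000035683, chr4:44300876-44364675, plus strand, GRCm38) is the maternal embryonic leucine zipper kinase, expressed in dividing progenitors. Its first bin fell from an estimated 247 to 109 normalized counts, or from 8.87% to 4.24% of the gene's reads, with a log2 ratio of -0.53 in the authors' deposited table. Bins 4 and 7 fell with it, at -0.45 (DEXSeq, adjusted p = 5.39e-08) and -0.38 (adjusted p = 0.0352), while the last of the 23 bins was called higher at 0.16 (adjusted p = 0.000123), all in the authors' deposited table. The gene as a whole had a log2 fold change of -0.12 (DESeq, adjusted p = 0.597 in the authors' deposited table). In Tet1kd cells the first bin of Melk had a ratio of -0.15 (DEXSeq, adjusted p = 0.0708 in the authors' deposited table).

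Mrps5 (ENSMUSG00000027374, chr2:127587222-127606829, plus strand, GRCm38), a protein of the small mitochondrial ribosomal subunit, fell at its first bin from an estimated 33.3 to 13.5 normalized counts in Tet2kd cells. The log2 ratio in the authors' deposited table was -0.57 (DEXSeq, adjusted p = 0.0366). The second bin, with a mean of 169, fell as well (-0.62, DEXSeq, adjusted p = 2.96e-05 in the authors' deposited table), and so did bin 4 (-0.16, adjusted p = 0.0362), whereas the last bin was higher (0.21, adjusted p = 0.00798). In Tet1kd cells Mrps5 bins 1, 2, 4 and 24 had ratios of the same signs, -0.36, -0.28, -0.12 and 0.12. None was called (DEXSeq, adjusted p = 0.429, 0.436, 0.285 and 0.207 in the authors' deposited table). In Tet2kd cells the low bins of Melk and Mrps5 lay at the 5′ side and a called higher bin at the 3′ end. Over all genes, 491 of the 530 called last bins were higher in Tet2kd cells. Lgals1, which encodes the secreted lectin galectin-1, rose at its first bin from an estimated 29.2 to 55.3, at 0.54 in the authors' deposited table (DEXSeq, adjusted p = 0.00217), while its second bin fell (-0.23, adjusted p = 0.00253). The Lgals1 gene has only 4 bins.

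Tubb5 and Rrm1 are outside the rule for named genes, which asked for a ratio of at least 0.5, and were chosen after their values were seen. The first bin of Tubb5, a β-tubulin, had estimates of 614 in parental and 335 in Tet2kd cells, at -0.39 in the authors' deposited table. The first bin of Rrm1, the large subunit of ribonucleotide reductase, had estimates of 2128 and 1270.5, at -0.22 in the authors' deposited table. By these estimates the share of the gene's reads went from 0.769% to 0.451% for Tubb5 and from 24.2% to 17.8% for Rrm1. In Tet1kd cells the same bins had ratios of -0.24 (DEXSeq, adjusted p = 0.559) and 0.01 (adjusted p = 0.989) in the authors' deposited table. Their dispersions were 0.114 and 0.0433 in the Tet1kd table and far smaller, 0.00454 and 0.00333, in the Tet2kd table. Nkain1, also chosen after its values were seen, had the first bin with the largest share of a gene among those called: 82.7% of its parental reads, with a log2 ratio of -0.15 in the authors' deposited table (DEXSeq, adjusted p = 2.31e-08 in Tet2kd cells).

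**Figure D3:**
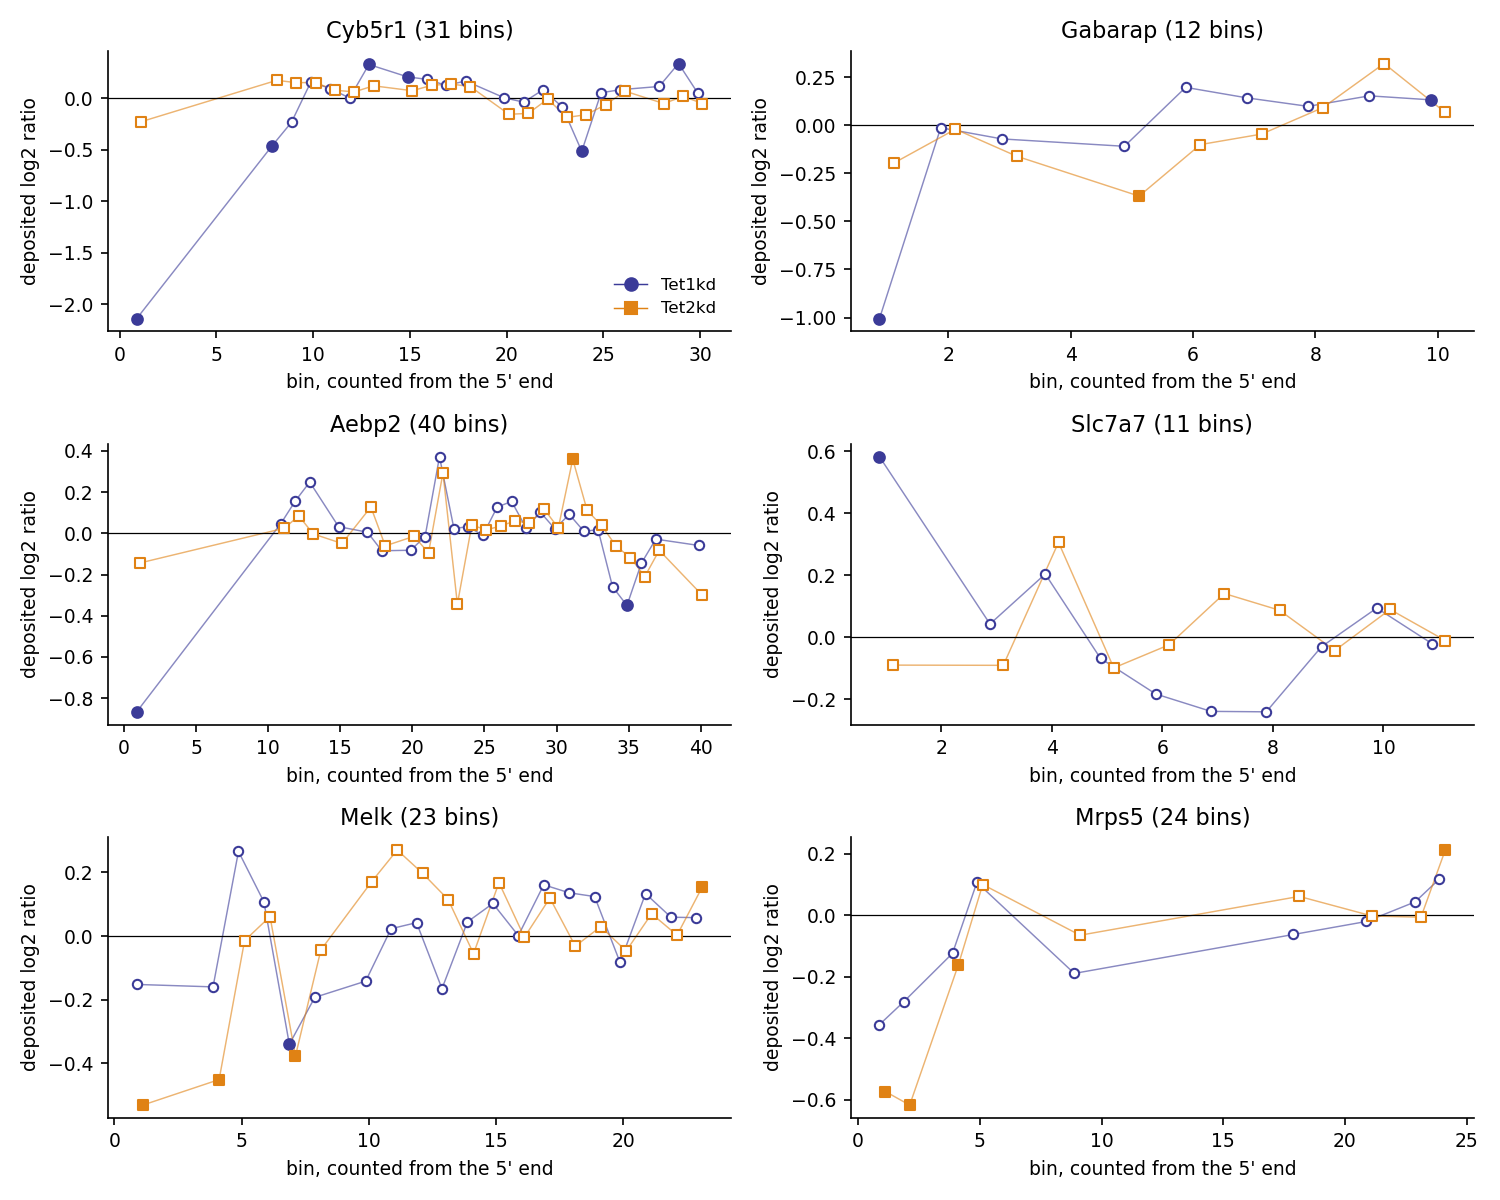
Deposited log2 ratio of each bin with a mean of at least 20 along Cyb5r1, Gabarap, Aebp2, Slc7a7, Melk and Mrps5, counted from the 5′ end, for Tet1kd (blue circles) and Tet2kd (orange squares); filled symbols have an adjusted p of at most 0.05 and the vertical scale differs between panels. The first bin is the extreme of the Tet1kd line in the first 4 genes, at -2.14 in Cyb5r1 and 0.58 in Slc7a7, and bins 1, 4 and 7 of Melk are low in Tet2kd.

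Several first bins were called in the same direction in both tables at smaller ratios. These were also chosen after their values were seen, and the shared parental libraries enter both values. Sf3b1, a core component of the U2 snRNP that recognizes branch points, had ratios of -0.34 (DEXSeq, adjusted p = 0.0229) in Tet1kd and -0.44 (adjusted p = 0.000449) in Tet2kd cells in the authors' deposited tables. Eif3l, a subunit of translation initiation factor 3, had -0.25 (DEXSeq, adjusted p = 0.0067) and -0.44 (adjusted p = 1.25e-06) in the authors' deposited tables. Pnn, a nuclear speckle protein linked to splicing, had -0.26 (DEXSeq, adjusted p = 0.0422) and -0.40 (adjusted p = 0.000808) there, and Fkbp9, a prolyl isomerase of the endoplasmic reticulum, -0.36 (adjusted p = 5.24e-06) and -0.28 (adjusted p = 0.000109) in the authors' deposited tables. The Fkbp9 gene itself differed between the comparisons, with a log2 fold change of -1.41 in Tet1kd (DESeq, adjusted p = 2.67e-57) and -0.03 in Tet2kd cells (adjusted p = 1) in the authors' deposited tables, and that difference was not tested. Tomm70a, an import receptor of the mitochondrial outer membrane, was higher in both: 0.48 (DEXSeq, adjusted p = 0.00575) and 0.41 (adjusted p = 0.026) in the authors' deposited tables.

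In Tet1kd cells 48 of the 71 called members (67.6%) had another called bin with a mean of at least 20 in the gene, against 333 of the 1247 members tested and not called (26.7%). In Tet2kd cells these were 30 of 52 (57.7%) and 387 of 1266 (30.6%). The bins of a gene are measured against each other, so their calls are not independent, and the difference was not tested. Nor are the 2 groups at equal depth. The first bin had a median mean of 140 in called members and 59.3 in those not called in Tet1kd cells. In Tet2kd cells these were 128 and 54.5. The next bin was called in the same direction in 11 Tet1kd and 7 Tet2kd genes and in the opposite direction in 5 and 3. Gene-level change was common among the members. By the authors' deposited table, the genes of 632 of the 1322 members (47.8%) changed in Tet1kd cells, 408 lower and 224 higher, against 30.4% of all 23120 genes tested. Of the genes with a called first bin 34 of 71 (47.9%) changed. Where the first bin was higher, the gene had fallen in 13 and risen in 2. Where it was lower, the gene had fallen in 13 and risen in 6. In Tet2kd cells 187 members' genes changed (14.1%, against 7.14% of 22949 genes) and 9 of the 52 with a called first bin (17.3%) did. The authors' second deposited test called more genes, 39.2% of all in Tet1kd and 18.2% in Tet2kd cells. With it 53 of the 71 and 30 of the 52 genes with a called first bin passed, against 67.5% and 44.2% of all members.

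The first bins were set beside the second, the inner and the last bins under the same minimum. Each bin was kept by its own mean, so the places do not come from the same genes. In Tet1kd cells 1318 first, 2387 second, 74646 inner and 6371 last bins were tested. The second bins of the members' own genes, taken without a minimum, were called in 54 of 1222 (4.42%) in Tet1kd cells. In Tet2kd cells 57 of 1217 (4.68%) were called. In Tet1kd cells 5.39% of first bins, 4.36% of second, 3.95% of inner and 7.77% of last bins were called in the authors' deposited table. In Tet2kd cells these were 3.95%, 4.62%, 3.96% and 8.31%. Last bins had a median mean of 269 in the Tet1kd and 244 in the Tet2kd table, first bins of 60.5 and 56.6. Calls followed depth, so these shares are not at equal depth, and those within ranges of the mean are given below. The direction differed more than the share. Of the called last bins 83.2% were higher in Tet1kd and 92.6% in Tet2kd cells, of the called second bins 33.7% and 13.6%, of the called inner bins 40.4% and 37.6%, and of the called first bins 47.9% and 25%. In Tet1kd cells the median ratio was 0.01 for first, -0.02 for second, -0.01 for inner and 0.02 for last bins in the authors' deposited table. In Tet2kd cells it was -0.01, -0.03, -0.01 and 0.03 in the authors' deposited table, so the first bins' median changed sign between the comparisons. More use of last bins and less of second bins thus moved with both knockdowns, which share the parental libraries. The part of RNA quality or of the library in this, and in the first bins, was not tested.

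**Figure D4:**
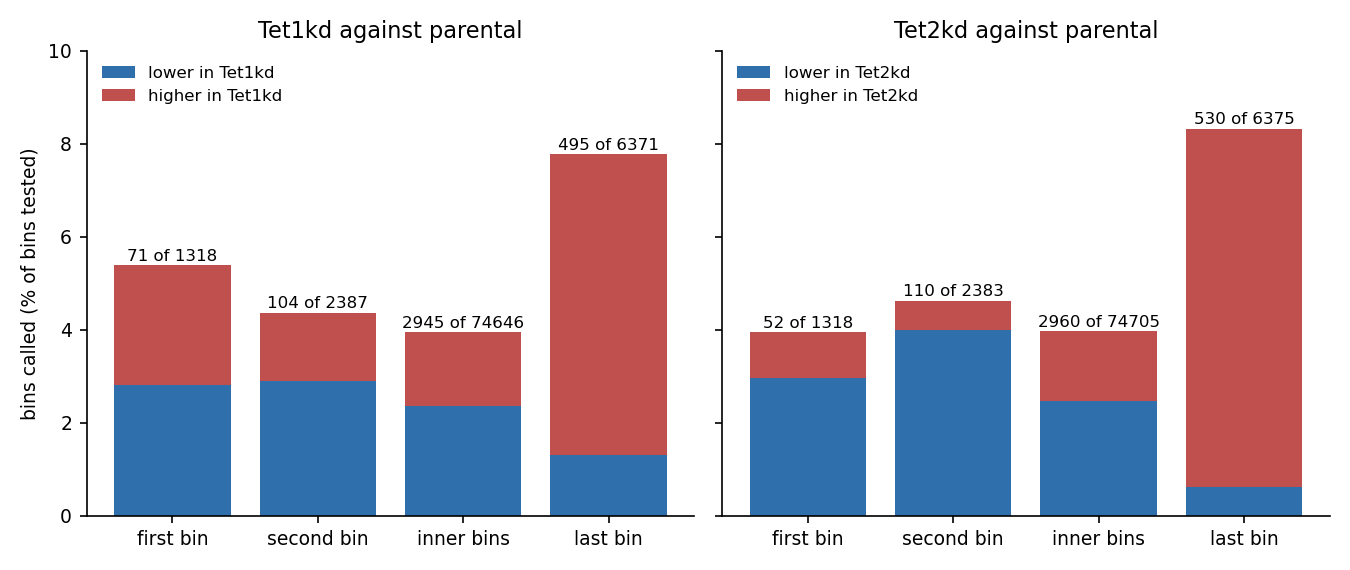
Share of tested bins (mean at least 20) that were called in the authors' tables by place in the gene, for Tet1kd (left) and Tet2kd (right), split into lower (blue) and higher (red) in the knockdown; the numbers over the bars are called of tested bins. First bins reach 5.39% and 3.95%, and last bins are mostly higher.

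Calls followed the depth of a bin. In Tet1kd cells the authors' deposited table called 26 of 882 first bins with a mean of 20 to 100 (2.95%), 30 of 371 with 100 to 500 (8.09%), 13 of 49 with 500 to 2000 (26.5%) and 2 of 16 above (12.5%). Inner bins of the same ranges were called at 2.11%, 5.5%, 12.6% and 20%, and last bins at 2.57%, 5.51%, 11.5% and 24.7%. In Tet2kd cells the first bins were called at 2.15%, 6.65%, 18.6% and 14.3% and the inner bins at 1.84%, 6.06%, 14.9% and 29.1%. The last bins there were called at 1.53%, 4.98%, 16% and 28%. Second bins were called at 2.46%, 6.07%, 14.3% and 13% in Tet1kd and at 2.52%, 7.25%, 13.6% and 20.8% in Tet2kd cells. Below a mean of 2000 first bins were thus called more often than last bins in each range, which was not tested. They did not exceed second bins throughout. In Tet2kd cells second bins were called more often than first bins at means of 20 to 100 and of 100 to 500. The highest ranges hold few first bins, 16 and 14. In Tet1kd cells the smallest absolute ratio among called members was 0.07, at Tdgf1, an EGF-CFC co-receptor of Nodal, whose first bin had a mean of 1598 in the authors' deposited table. Among first bins with a mean of 20 to 100 the smallest absolute ratio called in Tet1kd cells was 0.28, at Ghitm, an inner mitochondrial membrane protein, in the authors' deposited table. In Tet2kd cells it was 0.27, at the pseudogene Ccnb1-ps (a ratio of -0.27 in the authors' deposited table).

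The regulatory gene lists had few first bins deep enough to enter. Over all members tested 5.39% were called in Tet1kd and 3.95% in Tet2kd cells. At these shares few or no calls are to be awaited in lists this small, so the counts below describe single genes and not the lists. Of 25 genes for TET, DNMT and base excision proteins 4 were members and 1 was called. Parp1, the DNA-damage-responsive poly(ADP-ribose) polymerase, was lower in Tet1kd cells at -0.21 (DEXSeq, adjusted p = 0.0206 in the authors' deposited table), with estimates of 239 and 208 normalized counts. Dnmt1, the maintenance DNA methyltransferase, which has an oocyte and a somatic promoter, had a ratio of 0.43 in Tet1kd cells that did not pass (DEXSeq, adjusted p = 0.111 in the authors' deposited table). It is 1 of 4 members on the list of 53 genes with known alternative promoters, of which none was called in either comparison. Of 47 Polycomb and trithorax genes 6 were members, and Aebp2 was the one called (Tet1kd cells); Kdm6b, an H3K27 demethylase, had a ratio of 0.36 (DEXSeq, adjusted p = 0.0839 in the authors' deposited table).

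Of 36 pluripotency genes 11 were members and 1 was called in each comparison. Klf2, a Krüppel-like factor of the naive pluripotency network, was higher at 0.23 in Tet1kd (DEXSeq, adjusted p = 0.0192) and 0.30 in Tet2kd cells (adjusted p = 0.00197) in the authors' deposited tables. Its first bin held 1.80% of the gene's parental reads, and its estimates were 130 and 354 normalized counts in the Tet1kd table and 119 and 227 in the Tet2kd table. The Klf2 gene rose by 0.98 on the log2 scale in Tet1kd cells (DESeq, adjusted p = 2.51e-13 in the authors' deposited table). Pou5f1 (Oct4), which sustains pluripotency, had first-bin ratios of 0.01 and 0.01 (DEXSeq, adjusted p = 0.902 and 0.977 in the authors' deposited tables), and Sox2, its DNA-binding partner, -0.01 and -0.12 (adjusted p = 0.982 and 0.641). Dppa3, an oocyte and germ-cell factor, had 0.02 in Tet1kd cells (DEXSeq, adjusted p = 0.938 in the authors' deposited table) although the gene's log2 fold change was -1.43.

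Among 40 genes of the cell cycle and p53 response 13 were members, and Mcm4, a subunit of the replicative helicase, was called lower in both: -0.12 in Tet1kd (DEXSeq, adjusted p = 0.044) and -0.19 in Tet2kd cells (adjusted p = 0.000399) in the authors' deposited tables. Of 46 splicing factors 8 were members, with Sf3b1 the one called. Of 81 ribosomal protein genes 17 were members. None was called in Tet1kd cells, and Rpl32, of the large subunit, was lower in Tet2kd cells at -0.24 (DEXSeq, adjusted p = 0.018 in the authors' deposited table). Of 31 immediate-early and amino acid response genes 8 were members and none was called in either comparison, against 5.39% and 3.95% of all members. Fos and Fosb, transcription factors induced by growth signals, had first-bin ratios of 0.01 and 0.03 in Tet1kd cells (DEXSeq, adjusted p = 0.98 and 0.859) while their genes had log2 fold changes of 3.46 and 3.14 in the authors' deposited tables. Of 46 imprinted genes 3 (Impact, Peg10 and Ube3a) were members and none was called, and of the 30 feeder markers only Tagln, an actin-binding protein of contractile cells, was a member and was not called. The lists' median ratios ranged from -0.08 to 0.09 in Tet1kd and from -0.11 to 0.05 in Tet2kd cells, against -0.01 and 0.00 over all bins with a mean of at least 20 in the authors' deposited tables.

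The starts of the members were richer in CpG than those of all genes from which they came. A start was called CpG-rich where the first 300 bases of the transcript that begins furthest 5′ in GENCODE M21 had a CpG observed-over-expected ratio of at least 0.75 and a GC content of at least 55%. This held for 752 of 1317 members (57.1%) and for 5792 of 19110 genes from which they came (30.3%). The 2 sets differ in more than the rule's bin: the median parental gene mean was 1976 for the members and 98.2 for all genes. Their first exons had median lengths of 296 and 197 bases, and the 300 bases run into later exons where the first is shorter. The members had a median of 4 annotated starts and all genes 3. The annotation release behind the authors' bins is not given, so that transcript may not be the one whose exon forms the bin. The part of expression or of exon length in the difference was not tested. Called members were close to the members not called: 57.7% of 71 in Tet1kd and 57.7% of 52 in Tet2kd cells, against 57.1% in each. Of the first bins higher in Tet1kd cells 22 of 34 (64.7%) were CpG-rich and of those lower 19 of 37 (51.4%). The 95% exact binomial interval of the Tet1kd share of 57.7% over all 71 called members ran from 45.4% to 69.4%. That interval treats genes as independent and pools higher and lower bins, so it cannot decide whether the directions differ. The difference between the directions was not tested. The 13 members with a ratio of at least 0.5 in Tet1kd cells held 4 CpG-rich starts (30.8%), and their median observed-over-expected ratio was 0.53, against 0.83 for the members. This group was looked at after its values were seen and is given without a test.

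The starts of the named genes ranged widely. The observed-over-expected ratio was 0.38 for Cyb5r1, 0.53 for Gabarap, 0.46 for Aebp2, 0.38 for Krt42 and 0.13 for Adrb3. It was 0.76 for Atad2 and 0.92 for Ndufa13. For Sdhd, whose first exon in that transcript is 75 bases long, it was 0.36 over the spliced transcript and 1.02 over the RefSeq promoter window, which holds 29 CpG. For Aebp2 both measures were low, at 0.46 and 0.23. The first exon had a median length of 296 bases over the members and 197 over all genes from which they came. The planned comparison of promoter windows was void, since the RefSeq table matched 997 of the 1322 members (75.4%), under the 80% needed.

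**Figure D5:**
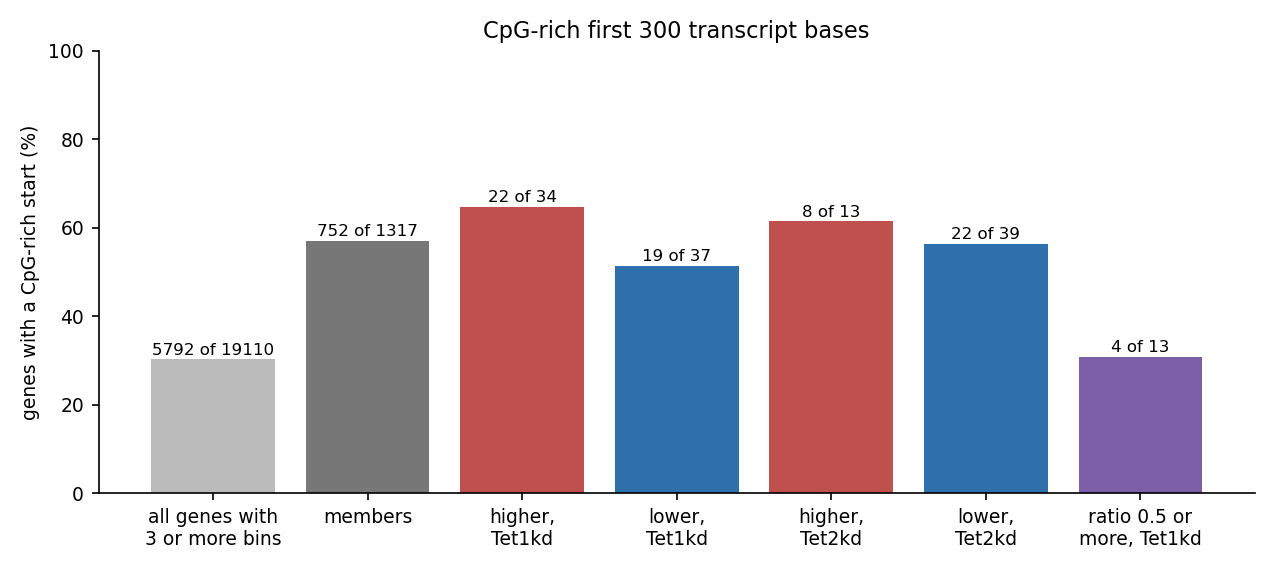
Percent of genes whose first 300 transcript bases are CpG-rich, for all genes with at least 3 bins, for the members, for called members by direction and knockdown, and for the Tet1kd members with an absolute ratio of at least 0.5; the numbers over the bars are CpG-rich of all genes with a value. Members reach 57.1% against 30.3% of all genes, and the last bar rests on 13 genes.

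The 5′ ends of some members overlap other genes, and the counting is not stated to use strand, so reads of overlapping genes could not be told apart. The first 500 bases of the gene overlapped another annotated gene in 264 of 1322 members (20%), in 12 of the 71 called in Tet1kd (16.9%) and in 4 of the 52 called in Tet2kd cells (7.69%). Among the named bins this concerns Ndufa13. How reads that fit several genes were counted is not stated either, which leaves the values of genes with near-identical copies or processed pseudogenes, such as Rpl32 and other ribosomal protein genes, Fth1, Tubb5 and Pou5f1, uncertain.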

How the data were processed

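The authors used TopHat2 (version 2.0.0), SAMtools (version 0.1.18) and DESeq (no version given) with the builds mm9 and NCBIM37, per the submitters' processing notes. Not given in the sources used here are the counter, its strand setting, the annotation release and the version of DEXSeq. The authors deposited 4 tables, 1 of genes and 1 of exon bins for each knockdown against parental. Per the file headers an exon table gives for each bin a dispersion score, a p-value, an adjusted p-value, the mean signal (normalized count) and a log2 ratio. Per the file headers a gene table gives the mean signal of both groups, their ratio (fold), the log2 of it and p-values of 2 tests, of which the first was used. Columns of per-sample values not used numbered 0.

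Bins were ordered by number and strand (GENCODE M21, GRCm38). The exon tables give no bin coordinates, so positions are those of genes or of RefSeq windows, not of bins. As a check of strand, the 3′ end bin had the higher mean in 6009 of 7028 minus-strand and 6025 of 7051 plus-strand genes with reads there. The deposited ratio, untreated over treated by its header, was read as parental over knockdown and printed with the opposite sign. Over 108 called members the parental shares from the 2 tables differed by a median of 0.0109 on the log2 scale with the ratio doubled and by 0.0742 with it as deposited, so estimated levels used the doubled ratio. Estimated levels carry no error of their own.

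Calls are the authors' DEXSeq or DESeq adjusted p-values at 0.05, adjusted over all bins or genes. They set the difference between groups against the spread between the 4 libraries of a group, and the number of clones behind those libraries is not stated. Members and lists were chosen with earlier results of these data known. Named genes were, per comparison, up to 10 higher and 10 lower called members with an absolute ratio of at least 0.5, the TET first bins, and up to 4 called members of each list (TET, DNMT and base excision; pluripotency; Polycomb and trithorax; splicing factors; alternative promoters; imprinted; ribosomal proteins; cell cycle and p53; feeder markers; immediate-early and amino acid response). Bin order and adjustment were tested on simulated data. Python 3.11.15, numpy 2.4.6, pandas 2.3.3, scipy 1.17.1 and matplotlib 3.10.9 were used.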

Additional observations from a re-analysis of the deposited data

How the results depend on the processing

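No paired analysis was possible because the exon tables hold no values per library; for the same reason no library could be left out, and neither the replicate block nor the leave-one-out fits were run. The promoter comparison of CpG class was not run, since too few members matched. Counts below are called first bins in Tet1kd and then in Tet2kd cells, against 71 and 52. They were 41 and 31 at a minimum mean of 100 (10.8% and 8.18% of 379 tested, against 5.39% and 3.95% of 1318). With at least 10 bins a gene they were 45 and 25 (6.67% and 3.7% of 675). They were 39 and 33 at an adjusted p of 0.01, and 13 and 4 at an absolute ratio of 0.5. When the first bin that reaches the minimum was taken they were 320 and 262 (3.12% and 2.55% of 10256 and 10257 tested). These split into 112 higher and 208 lower in Tet1kd and 49 and 213 in Tet2kd cells. Among genes not called themselves the Tet1kd count was 37 of 687 tested, or 5.39%, the same share as over all members. By ranges of the mean the share of first bins called was 2.95%, 8.09%, 26.5% and 12.5% in Tet1kd and 2.15%, 6.65%, 18.6% and 14.3% in Tet2kd cells. With an observed-over-expected ratio of at least 0.6 alone, 78.9% and 80.8% of called members were CpG-rich, against 82.4% of all members; over the first 150 bases 62% and 65.4% were. The second deposited gene test called 53 of the 71 and 30 of the 52 genes, against 34 and 9 by the first. The CpG alternatives, the second gene test and the count without overlapping genes (59 and 48, or 5.58% and 4.54% of 1057) were chosen after seeing the data. The 16 first bins named for a ratio of at least 0.5, with Sdhd in both comparisons, kept all 17 calls when p-values were adjusted over bins with a mean of at least 20 only, and 10 of these calls had an adjusted p of at most 0.01. Many members were shallow: 882 and 930 of the 1318 tested had a mean under 100.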

Other observations

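Some well-covered first bins carried small but called ratios. They were chosen after their values were seen. Elob, an elongin subunit, had estimates of 619 in parental and 403 normalized counts in Tet1kd cells and a log2 ratio of -0.24 in the authors' deposited table (DEXSeq, adjusted p = 3.31e-11). Glud1, glutamate dehydrogenase, went from 365 to 507, at 0.25 in the authors' deposited table (DEXSeq, adjusted p = 6.13e-07). Its gene had a log2 fold change of -0.02 there (DESeq, adjusted p = 0.969 in the authors' deposited table). Pkm, pyruvate kinase, went from 1334 to 1123, at -0.15 (DEXSeq, adjusted p = 4.37e-07 in the authors' deposited table). Pabpc1, the cytoplasmic poly(A)-binding protein, had 5426 and 5489, with a ratio of 0.08 (DEXSeq, adjusted p = 3.18e-07 in the authors' deposited table). In Tet2kd cells Stmn2, a microtubule-destabilizing stathmin known from neurons, went from 2086 to 1362, at -0.19 (DEXSeq, adjusted p = 4.36e-10 in the authors' deposited table).

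The mitotic kinase Plk1 and the matrix protein Mgp had a first-bin ratio and a gene fold change of opposite sign. Both were also chosen after their values were seen. The Plk1 gene rose by 0.40 on the log2 scale in Tet1kd cells in the authors' deposited table (DESeq, adjusted p = 2.99e-05). Its first bin was estimated at 584 in parental and 590 in Tet1kd cells, a near-equal level, and its ratio in the authors' deposited table was -0.19 (DEXSeq, adjusted p = 2.57e-05). The Mgp gene rose by 0.44 in Tet2kd cells in the authors' deposited table (DESeq, adjusted p = 0.00241). Its first bin was estimated at 160.5 in parental and 152 in Tet2kd cells, with a ratio of -0.26 in the authors' deposited table (DEXSeq, adjusted p = 0.000255).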
